A study of Mus musculus with 48 samples.

Results

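RNA-immunoprecipitation sequencing (RIP-seq) libraries of the deadenylase-inactive CNOT7 mutant D40A were compared with those of wild-type CNOT7, over every gene model in the count table. The libraries were chosen by their labels alone: 4 D40A RIP libraries (replicates 6, 8, 9 and 10) and 5 CNOT7 RIP libraries (replicates 6, 7, 8, 9 and 10), which are 9 of the 48 libraries of the series and 9 of its 24 RIP libraries. Adding the 9 input libraries of the same constructs makes 18 of 48. All were made from 4T1, a transplantable mouse mammary carcinoma line of strain BALB/cfC3H, stably transduced with a lentiviral vector that carried human FLAG-CNOT7 cDNA, wild-type or D40A, behind a murine Pol2 promoter, and selected with blasticidin. The cells were otherwise untreated, kept their own Cnot7 gene, and were lysed without crosslinking. RIP was done with the anti-FLAG antibody M2, and the input of each lysate was sequenced without antibody. The 5 vector RIP libraries, from cells with the control vector 8166-M24-658 and the same antibody, give the background. Each construct was represented by transduced cells of a single line, and nothing in the labels says whether replicates were separate cultures, so p-values measure the spread between these samples only, which may be technical.

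CNOT7 is a catalytic subunit of CCR4-NOT, the main cytoplasmic complex that shortens the poly(A) tails of mRNAs. The scaffold CNOT1 holds the deadenylase subunits, and adaptors such as TOB1 bring the complex to mRNAs through RNA-binding proteins that recognize sequence motifs in their 3' ends. Removal of the tail is usually followed by decapping and decay. D40A replaces an acidic residue of the active site. The comparison asks whether transcripts were held on CNOT7 when it could not remove their tails.

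The codon concerned is shown because it is the designed difference between the constructs. The construct is human, and the stretch printed is that of the mouse gene Cnot7, transcript ENSMUST00000034012.9 in GENCODE M21 on GRCm38, at chr8:40507622-40507648 on the minus strand, within coding exon 3. It spans codons 40 to 48, and the capitals mark codon 40, which reads aspartate (D) in the mouse gene.
Mouse Cnot7 codons 40 to 48: GACaccgagtttccaggcgttgttgca

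The D40A and CNOT7 immunoprecipitates shared their most counted RNAs, and no transcript differed between them past the test. The same 13 gene models took 97.3% ± 0.773 (SD, n = 4) of the counts in D40A RIP and 97.5% ± 0.544 (SD, n = 5) in CNOT7 RIP. Of the 6931 models tested, 0 were higher and 0 lower in D40A RIP at an adjusted p under 0.05 (edgeR's quasi-likelihood test), and the same count of 0 came from DESeq2 and from limma. The largest fitted differences among well-counted models were in mitochondrial transcripts, led by the 12S rRNA mt-Rnr1, and they rested on 1 or 2 D40A libraries. The transcripts that the study listed as bound by CNOT7 summed to a median of 59.3 CPM (counts scaled to a library total of 1000000) in D40A RIP and 98.3 in CNOT7 RIP, with overlapping groups. At every shared replicate number D40A RIP was the lower, on a list picked with these same CNOT7 RIP libraries.

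The libraries differed in depth. Total counts in D40A RIP were 4160074, 3315016, 10719137 and 1305627 in replicates 6, 8, 9 and 10, and in CNOT7 RIP they ranged from 1484364 to 3581483. Outside the 13 models, D40A RIP held 87174, 66645, 377943 and 42003 counts, and CNOT7 RIP held 50116 to 76969. D40A RIP replicate 9 stood apart on both counts. It had 4571 models with at least 10 counts, against 426 to 1143 in the other D40A libraries and 675 to 1054 in CNOT7 RIP. It also held 1611 counts on the 2253 models that had no count in any of the 24 input libraries of the series, where the other D40A libraries held 33 to 85 and CNOT7 RIP 19 to 177. The groups overlapped in total count (exact permutation test, two-sided, n = 4 and 5, p = 0.302), in counts outside the 13 models (p = 0.365) and in models with at least 10 counts (p = 0.492), and each of these 7 tests of single values had an adjusted p of 0.746. The smallest p this exact test can give is 0.0159. Results are therefore given with and without D40A RIP replicate 9.

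**Figure D1:**
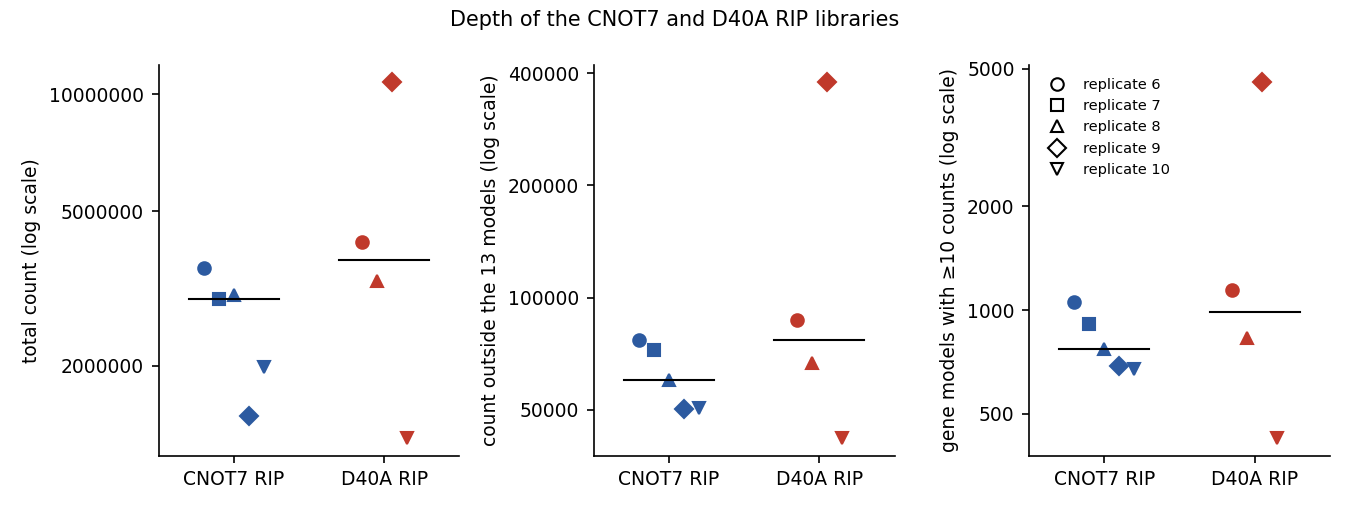
Total count, count outside the 13 most counted models, and number of models with at least 10 counts (all on log axes) in each CNOT7 RIP and D40A RIP library, with marker shape for the replicate number and a line at the group median. D40A RIP replicate 9 (10719137 counts, 377943 of them outside the 13 models, 4571 models) lies above every other library in all 3 panels.

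In the inputs another library stood apart. Of the 605 models with a median of at least 100 counts in the other inputs, 88 had 3 or fewer counts in CNOT7 input replicate 10, where each of the other 23 inputs of the series had 0 or 1 such model. Its Spearman correlation with the other 8 inputs, across models and given as a description, was 0.569 to 0.627, while the others reached up to 0.769. The D40A and CNOT7 inputs held 337861 to 826768 counts. Of the 26899 models, 16665 (62.0%) had 3 or fewer counts in every one of the 9 RIP libraries, which was taken as the limit under which no fold is given. In CPM 3 counts were 0.280 in D40A RIP replicate 9 and 2.30 in replicate 10.

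The model annotated as Cnot7 did not separate the constructs. It had 12, 8, 18 and 3 counts in D40A RIP (replicates 6, 8, 9, 10), 10, 7, 5, 3 and 3 in CNOT7 RIP (replicates 6 to 10) and 6, 9, 5, 5 and 2 in vector RIP. The input counts were 147, 53, 53 and 50 for D40A and 142, 116, 86, 31 and 6 for CNOT7. The groups overlapped in both fractions. On the log2 CPM scale (prior count 2) the RIP means were 1.51 ± 0.259 (SD, n = 4) and 1.37 ± 0.285 (SD, n = 5), with an exact permutation p of 0.444, and the input means were 7.20 ± 0.555 and 6.79 ± 1.46, with an exact permutation p of 0.746. Counts for the human construct were not separated from the mouse gene, so this model does not check the label. The gene overlaps Zdhhc2 and Vps37a on the other strand.

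Many genes could not be read from their models. The strand of counting is not given, and its part in this was not tested. The library kit was directional, and genes that every cell uses were nearly empty in the 9 inputs: Actb, beta-actin, had 0 to 26 counts and the glycolytic enzyme Gapdh 1 to 7. Epithelial markers of this carcinoma were as low there, with 0 to 6 counts for Krt8, 0 to 8 for Krt18 and 4 to 18 for Epcam. In contrast Ccdc107, which lies across from the abundant noncoding RNA gene Rmrp, had 15158 to 135506 counts. Among the 50 models with most counts in these inputs, 39 were nuclear and in GENCODE M21, and 37 of them (94.9%) overlapped a gene on the opposite strand, against 10469 of 21333 (49.1%) of all such models with a count. Which RNA a model's counts came from was therefore uncertain where genes overlap, and the low epithelial markers do not test the cell type. Actb, Krt18 and Epcam overlap no gene on the opposite strand and were near empty too. A low count on any model therefore cannot be read as little mRNA.

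The 13 models that held most RIP counts took overlapping shares in both constructs and in the vector control. The first, ENSMUSG00000045999, which carries no symbol and is not in GENCODE M21, held 58.4%, 62.7%, 64.4% and 56.6% of the counts in D40A RIP. In CNOT7 RIP it held 61.1%, 61.5%, 63.4%, 63.6% and 57.0%. The groups overlapped (exact permutation test, n = 4 and 5, p = 0.714), replicate 10 was lowest in each, and the intervals of single libraries were narrow (Wilson, 95%, 58.4% to 58.5% in D40A RIP replicate 6), covering counting error only. Filip1l, a filamin A interacting protein, held 10.6% ± 1.44 in D40A RIP, 10.3% ± 0.794 in CNOT7 RIP and, in the vector libraries, 10.4% ± 1.58 (SD, n = 4, 5 and 5). Jarid2, a partner of the Polycomb complex PRC2, held 6.85%, 6.77% and 6.61% in that order. The pattern was the same further down the list: ENSMUSG00000082697 held 5.41%, 5.58% and 5.58%, and Tmtc2, an endoplasmic reticulum O-mannosyltransferase, held 4.12%, 3.83% and 3.75%. Zc3h7a, a zinc finger protein, LOC102639045 (antisense to Kpna1 and Parp9), Cntnap5b, the Galnt2 model, the growth factor receptor Fgfr2, Il1rapl1, the importin Kpna1 and the transcription factor Atf2 made up the rest, each with 0.234% to 3.42% of the counts in every group mean. The fitted log2 fold changes of all 13 lay between 0.03 and 0.25 (median 0.16), with SEs of 0.56 to 0.86 and adjusted p of 1 (edgeR). Without D40A RIP replicate 9 they lay between -0.04 and 0.33. The fit used 1 estimate of the spread for all 48 libraries, inputs included. These SEs are therefore not the spread between RIP libraries alone. The share of counts on the 13 models did not separate the groups either (exact permutation test, n = 4 and 5, p = 0.683).

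**Figure D2:**
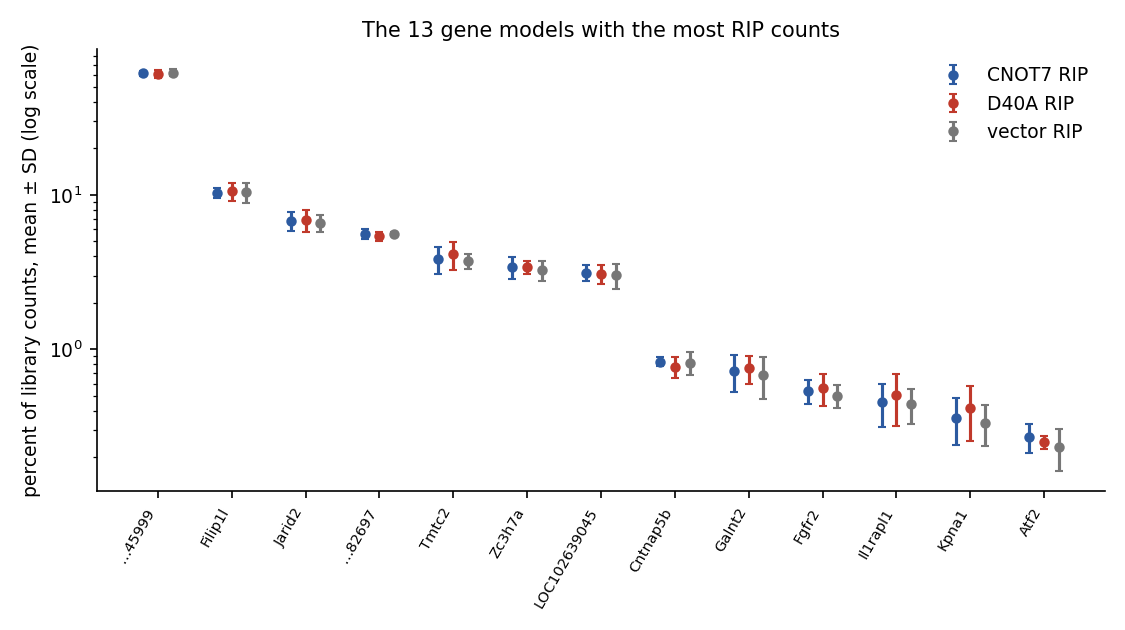
Share of each RIP library's counts (percent, log axis) on the 13 models with most RIP counts, as mean (points) and SD (bars) over 5 CNOT7, 4 D40A and 5 vector RIP libraries, with the models that have no symbol shown by the end of their identifier. The bars of the 3 groups overlap for every model, from 60.5%, 61.3% and 62.1% (D40A, CNOT7 and vector means) at ENSMUSG00000045999 to 0.250%, 0.270% and 0.234% at Atf2.

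Across all genes, D40A RIP did not differ from CNOT7 RIP beyond the spread estimated over all 48 libraries, inputs included. At an unadjusted p under 0.05, 320 of 6931 models (4.62%) were higher in D40A RIP and 28 (0.404%) were lower, with a median log2 fold change of 0.38 over all models tested. DESeq2 gave 166 higher and 18 lower, and limma 269 and 65, each with 0 past the adjusted threshold. The excess of higher values depended on scaling and on 1 library. Scaled by the counts outside the 13 models in place of TMM factors, 2.15% were higher and 0.923% (64 models) lower, with a median of 0.02. Without D40A RIP replicate 9 the split turned to 69 higher (1.12% of 6173) and 123 lower (1.99%), with a median of -0.07. With that library left out and the scaling outside the 13 models it was 42 to 158.

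Most counts of the 320 nominally higher models in D40A RIP lay in replicate 9, as did those of all models tested. In 310 of the 320 the highest D40A count was in that library, which held 72.8% of their D40A counts, against 5952 of 6931 and 54.9% over all models. In 246 (76.9%) every other D40A library had 3 or fewer counts, and in 286 every CNOT7 RIP library did, against 66.5% and 4036 of all 6931. Of the 267 that could still be tested without it, 52 had an unadjusted p under 0.05 in the same direction, and of the 28 lower models 10 did. A fitted value above 0 was kept by 229 of the 267 (85.8%), against 45.7% of all models tested both ways. The remaining libraries had also entered the choice of these models. The shift followed the count level. In the 4511 models with a group median under 3 counts the median log2 fold change was 0.57, against -0.24 without replicate 9. In the 139 with a median of at least 100 counts it was 0.14, against 0.12 without it.

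The well-counted models set limits on what a difference could be. With at least 10 counts in all 9 RIP libraries there were 342 models, whose log2 fold changes ran from -0.66 to 2.56 with a median of 0.12, and 327 of them (95.6%) lay within 1 log2 unit of 0. The 95% interval of the fold change lay within 4-fold in either direction for 318 (93.0%). Their median interval half-width was 0.93 log2 units, and 88 of the 342 had an interval wholly within 1 log2 unit of 0. These intervals also take in the spread of the input libraries. Of the 342, 12 had a positive and 0 a negative difference at an unadjusted p under 0.05, and 2 and 0 without D40A RIP replicate 9.

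**Figure D3:**
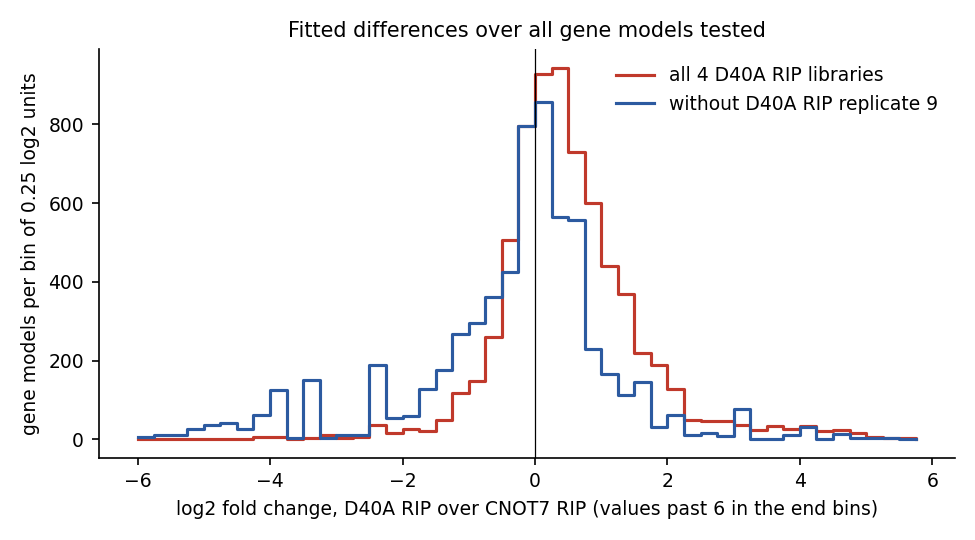
Number of models per bin of 0.25 of the fitted log2 fold change, D40A RIP over CNOT7 RIP, with all 4 D40A libraries (6931 models) and without replicate 9 (6173 models), with values past 6 in the end bins. The first distribution is shifted to the right of 0 (median 0.38) and the other is centered near 0 (median -0.07) with a tail of low-count models to the left.

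In CPM, 17 of the 6931 models (0.245%) were higher in every D40A RIP library than in every CNOT7 RIP library, and 9 (0.130%) were lower. With replicate 9 of D40A RIP left out it was 23 (0.373% of 6173) and 55 (0.891%). Of the 17, 15 had 3 or fewer counts in every CNOT7 library. Named after their values were seen, Mroh1 had 4, 2, 22 and 2 counts in D40A RIP and 0, 1, 1, 0 and 0 in CNOT7 RIP, and the chromatin remodeling subunit Arid1a had 2, 2, 10 and 2 against 0, 1, 1, 0 and 0. These counts are too few for a fold. Among the 9 lower models Zdhhc2, a palmitoyltransferase gene that overlaps Cnot7, was counted best, with 88, 70, 214 and 25 counts in D40A RIP and 92, 104, 89, 40 and 46 in CNOT7 RIP, and a log2 fold change of -0.29. Ogg1, a DNA repair glycosylase, came next, with 39, 31, 75 and 11 counts in D40A RIP and 46, 39, 31, 19 and 31 in CNOT7 RIP, and its log2 fold change was -0.40 with an adjusted p of 0.991 (edgeR).

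Of the 10 models named for the smallest p toward D40A, 9 were mitochondrially encoded. mt-Rnr1, the small mitochondrial rRNA, had 75, 342, 3696 and 5759 counts in D40A RIP and 67, 319, 357, 196 and 1042 in CNOT7 RIP. Replicates 6 and 8 of D40A lay within the CNOT7 counts, replicates 9 and 10 held the large counts, and replicate 10 was also highest in CNOT7 RIP. In CPM D40A replicate 6 (18.0) lay just below the CNOT7 range of 18.7 to 526, and replicate 9 (345) lay within it. The log2 fold change was 2.56 (SE 0.81, edgeR's unadjusted p = 0.00245, adjusted p = 0.848), and it was 2.85 without D40A RIP replicate 9, 0.08 without D40A RIP replicate 10 and 3.46 without CNOT7 RIP replicate 10. mt-Rnr2, the large rRNA, had 143, 239, 4155 and 1402 counts in D40A RIP and 168, 260, 284, 187 and 478 in CNOT7 RIP. Its log2 fold change was 1.64 (SE 0.62, adjusted p = 0.848, edgeR) and 0.74 without D40A RIP replicate 10. mt-Nd5, a subunit of respiratory complex I, was likewise high in replicates 9 and 10 only, with 227, 128, 3304 and 550 counts against 142, 222, 112, 213 and 239, and a log2 fold change of 1.41 (SE 0.54) that was 1.00 without replicate 9. The cytochrome c oxidase subunit mt-Co1, with 44 to 1923 counts against 38 to 102, went from 1.57 to 0.63 when replicate 9 was left out. The same step took mt-Co3 from 1.73 to 0.32, mt-Nd4 from 1.61 to 0.14, mt-Co2 from 1.72 to 0.75, mt-Cytb from 1.47 to 0.15 and mt-Nd3 from 1.59 to -0.31.

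The nuclear gene among the 10 was Mtx1, which encodes the mitochondrial outer membrane import protein metaxin 1 and overlaps Thbs3 on the other strand. It had 43, 26, 121 and 15 counts in D40A RIP, or 10.2 ± 1.67 CPM (SD, n = 4), and 29, 15, 23, 6 and 7 in CNOT7 RIP, or 5.65 ± 2.07 CPM (SD, n = 5). The groups overlapped, with D40A replicate 8 below CNOT7 replicate 6 in CPM. The log2 fold change was 0.92 (SE 0.39, adjusted p = 0.848, edgeR) and 0.84 without D40A RIP replicate 9. With single libraries, or replicate 9 of both groups, left out it ranged from 0.64 to 1.10. Against vector RIP, where Mtx1 had 18, 18, 29, 19 and 16 counts, its log2 fold change was 0.45.

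The models named toward CNOT7 were low in count, and 1 of the 10 had an unadjusted p under 0.05. Gm15518, antisense to the cilium gene Ift57, had 5, 5, 30 and 5 counts in D40A RIP (2.33 ± 1.21 CPM) and 14, 14, 12, 4 and 15 in CNOT7 RIP (4.56 ± 1.83 CPM). The groups overlapped, and the log2 fold change was -0.91 (SE 0.43, adjusted p = 0.956, edgeR), ranging from -1.37 to -0.74 as libraries were left out. Wdr54, which overlaps Rtkn on the other strand, had 43, 14, 41 and 4 counts against 67, 37, 19, 13 and 17 and a log2 fold change of -0.81. Eme2, a partner of the structure-specific nuclease MUS81, had 14, 7, 24 and 5 against 20, 22, 11, 6 and 10 and a log2 fold change of -0.74. The rest (4930562F07Rik, Gm26825, Gm15890, the proline dehydrogenase Prodh, Dbndd1, Gm11651 and the mitochondrial ribosomal protein Mrpl47) had log2 fold changes of -0.92 to -0.52. None of these 10 names a group of genes with a common role.

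The mitochondrial genome as a whole followed those libraries. All 36 mitochondrially encoded models were tested, 36 of 36 fitted values were above 0 and 20 had an unadjusted p under 0.05 (4.62% of all models were higher), with a median log2 fold change of 1.55 against 0.38 over all models. Without D40A RIP replicate 9 the median was 0.16, 20 of 34 values were above 0 and 2 were higher at an unadjusted p under 0.05, against a median of -0.07 and 1.12% over all models. The sum over the 36 was 304, 378, 2710 and 6980 CPM in D40A RIP and 267, 577, 448, 1030 and 1200 CPM in CNOT7 RIP. The 2 high D40A libraries differed in kind. Replicate 10 was high in the rRNAs, with 5480 CPM on both together against 732 in replicate 9, while replicate 9 was high in the 11 coding genes of the plus strand, with 1750 CPM against 890. In vector RIP, which holds no FLAG protein, the rRNAs had 29.7, 97.8, 114, 583 and 803 CPM and the coding genes 122, 239, 103, 1320 and 158 CPM in replicates 6 to 10, so the same replicate numbers were high there too. The part of depth in these values was not tested.

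**Figure D4:**
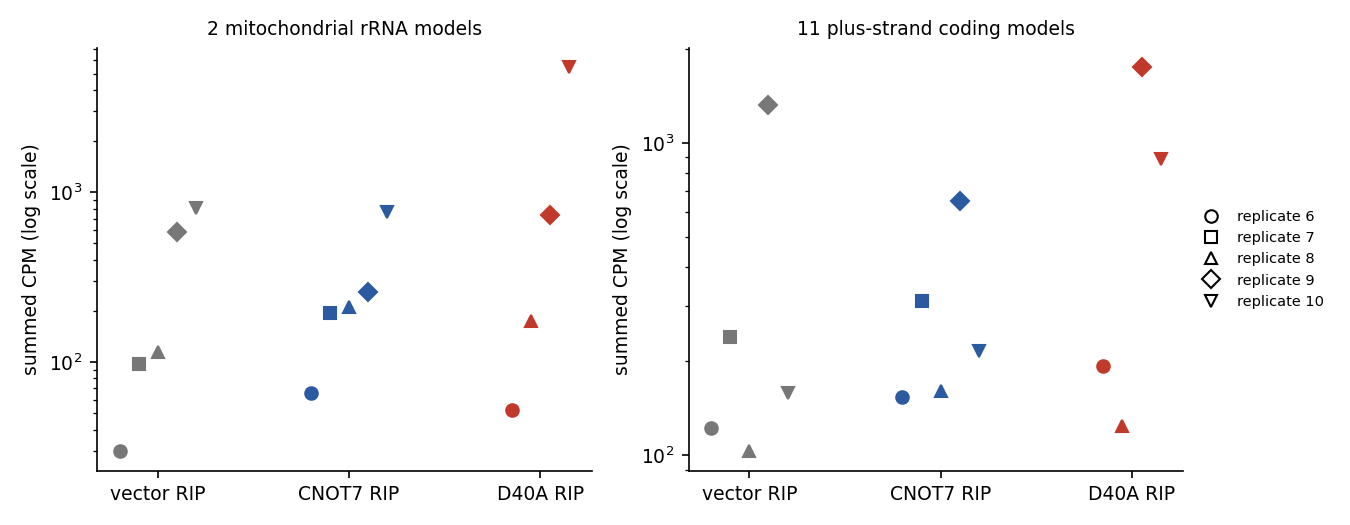
Summed CPM (log axes) of the 2 mitochondrial rRNA models and of the 11 plus-strand coding models in each vector, CNOT7 and D40A RIP library, with marker shape for the replicate number. Replicate 10 is highest for the rRNAs in all 3 groups (803, 767 and 5480 CPM) and replicate 9 for the coding genes (1320, 651 and 1750 CPM).

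Models of the deadenylation machinery itself had few counts in both precipitates, which does not show that their mRNAs were scarce there. For this and the gene groups after it, the background over all models at an unadjusted p under 0.05 was 4.62% above and 0.404% below 0 with a median of 0.38, and 1.12%, 1.99% and -0.07 without D40A RIP replicate 9. Of all 6931 models, 4036 had 3 or fewer counts in every CNOT7 RIP library. The 5648 that exceeded 3 counts in some RIP library had a median of 0.43. Of the 12 CCR4-NOT subunit genes in the table, 9 had more than 3 counts in some library and 7 were tested, of which 0 had an unadjusted p under 0.05 and 3 a fitted value above 0. Their median log2 fold change was -0.15, and 0.28 over the 5 of 7 that exceeded 3 counts in some RIP library, so its sign rests on models too low for a fold. With D40A RIP replicate 9 left out, 3 of 6 tested exceeded 3 counts, as did 3081 of all 6173 models, and list medians without it lean on such low models. The scaffold Cnot1 had 3, 0, 19 and 1 counts in D40A RIP and 1, 6, 2, 4 and 2 in CNOT7 RIP, which is too few to read a difference from. Summed over the 12, D40A RIP held 3.02 to 8.12 CPM and CNOT7 RIP 5.31 to 12.1 CPM.

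Adaptors and RNA-binding partners, which bring the complex to its targets, gave 13 tested of 33 genes, with 1 at an unadjusted p under 0.05 (higher), and a median of 0.65. In 11 of the 13 every CNOT7 RIP library had 3 or fewer counts, so this median rests on models too low for a fold. With D40A RIP replicate 9 left out, 2 of the 12 still tested exceeded 3 counts, too few for a median. The best counted of them was Cpeb3, a protein that binds cytoplasmic polyadenylation elements. It had 56, 17, 62 and 7 counts in D40A RIP (7.43 ± 4.03 CPM) and 22, 15, 26, 13 and 11 in CNOT7 RIP (6.81 ± 1.73 CPM), and the groups overlapped, with a log2 fold change of 0.37 (SE 0.49). Ago2, the microRNA effector, had 0, 2, 26 and 1 counts against 0, 1, 3, 6 and 5. Samd4, a Smaug repressor, had 0, 1, 20 and 0 against 0, 3, 2, 3 and 0.

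Poly(A) tail enzymes and binding proteins gave 12 tested of 18, with 1 at an unadjusted p under 0.05 (higher), and a median of 0.75. In 9 of the 12 every CNOT7 RIP library had 3 or fewer counts. The 9 that exceeded 3 counts in some RIP library had a median of 0.56. Without replicate 9, 4 of 12 exceeded 3 counts. Ccrn4l, the circadian protein nocturnin, had 8, 18, 263 and 23 counts in D40A RIP and 12, 23, 18, 19 and 16 in CNOT7 RIP. Its log2 fold change of 0.89 (SE 0.52, edgeR's unadjusted p = 0.0937) was 0.11 without replicate 9. Pabpc1, the cytoplasmic poly(A)-binding protein, had a value of 0.15, and the deadenylase Parn was not tested, with 24 of its counts in D40A RIP replicate 9.

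Decapping and decay factors, the step after deadenylation, gave 13 tested of 41, with 0 at an unadjusted p under 0.05 and a median of 0.23. In 7 of the 13 every CNOT7 RIP library had 3 or fewer counts. The 9 that exceeded 3 counts in some RIP library had a median of 0.60. Without replicate 9, 6 of 12 exceeded 3 counts, with a median of -0.06. Edc3, an enhancer of decapping, had 38, 13, 38 and 3 counts in D40A RIP and 29, 18, 8, 13 and 13 in CNOT7 RIP, and a log2 fold change of -0.11 (SE 0.49). Smg6, the endonuclease of nonsense-mediated decay, went from 1.04 to -0.14 when replicate 9 was left out, and the exosome subunit Exosc3 was at -0.39.

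Short-lived mRNAs that carry AU-rich elements are known deadenylation targets. Of 42 immediate early and AU-rich genes 17 were tested, 0 had an unadjusted p under 0.05, and the median was 0.33. In 16 of the 17 every CNOT7 RIP library had 3 or fewer counts, so this median rests on models too low for a fold. The 12 that exceeded 3 counts in some RIP library had a median of 0.63. Without replicate 9, 1 of 16 exceeded 3 counts. The cytokine Lif was at -0.25. The AP-1 member Fosl1 had 2, 3, 9 and 1 counts against 3, 3, 3, 2 and 3, and Ptgs2, cyclooxygenase 2, had 1, 2, 22 and 2 against 2, 1, 0, 2 and 1. Replication-dependent histone mRNAs carry no poly(A) tail, and 47 of 49 had 3 or fewer counts in every RIP library. Hist1h1e, the best counted, had 6, 2, 3 and 0 counts in D40A RIP and 2, 0, 0, 0 and 0 in CNOT7 RIP.

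Cytosolic ribosomal protein mRNAs, a stable and abundant class, gave 51 tested of 84, where 4 lay higher and 0 lay lower at an unadjusted p under 0.05, against 4.62% and 0.404% of all models, with a median of 0.38, equal to that of all models. In 42 of the 51 every CNOT7 RIP library had 3 or fewer counts. The 30 that exceeded 3 counts in some RIP library had a median of 0.59, against 0.43 over all such models. Without replicate 9, 48 were tested, with 0 higher and 1 lower, against 1.12% and 1.99% of all models. The 10 of them that exceeded 3 counts had a median of -0.52, against -0.01 over all such models. Rps2 had 37, 50, 165 and 28 counts in D40A RIP (15.2 ± 5.13 CPM) and 39, 71, 25, 28 and 64 in CNOT7 RIP (18.8 ± 9.77 CPM), overlapping, with a log2 fold change of -0.14 (SE 0.54). Rps28 was at 0.16 and Rpl23 at -0.59. Paralogous copies of these genes can share reads, so single members are uncertain. Of 13 structural noncoding RNAs and snoRNA hosts 8 were tested, with 1 at an unadjusted p under 0.05 (higher) and a median of 1.15. In 5 of the 8 every CNOT7 RIP library had 3 or fewer counts. Without replicate 9, 3 of 7 exceeded 3 counts. Rmrp, the RNA of RNase MRP, was at -0.08, the snoRNA host Gas5 at 0.19 and the nuclear Malat1 at 1.12, with 2, 13, 36 and 29 counts against 2, 3, 14, 1 and 15.

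Marker lists of the epithelial type of the line and of 4 other cell types had most counts in D40A RIP replicate 9, the deepest library, and in CPM the endothelial and epithelial lists were highest there. Its summed counts were 28 on the 4 endothelial markers and 15 on the 6 fibroblast markers, against 0 to 2 and 0 to 4 in the other 8 RIP libraries. On the 10 epithelial markers it held 156 against 3 to 16, on the 5 leukocyte markers 35 against 2 to 14, and on the 3 adipocyte markers 4 against 0 or 1. It had a count on 4 of 4 endothelial, 6 of 6 fibroblast, 9 of 10 epithelial, 3 of 5 leukocyte and 2 of 3 adipocyte markers, and Adipoq, Krt5, Cd3e and Lyz2 were at 0 in it. In CPM the endothelial markers were 2.61 there and 0 to 1.35 elsewhere, and the epithelial markers 14.6 and 0.986 to 12.3. The other lists lay within the range of the other libraries, with 1.40 and 0 to 1.53 CPM for fibroblast, 3.27 and 1.51 to 4.70 for leukocyte and 0.373 and 0 to 0.766 for adipocyte markers. Their part in the results was not tested.

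The transcripts that the study published as bound by CNOT7 were picked by it with these same CNOT7 RIP, input and vector RIP libraries, together with array data not used here, so their level in CNOT7 RIP is not independent of the choice, and that in vector RIP is not either. The D40A values were not used for it, as far as the study's text says. The list summed to 80, 167, 2105 and 89 counts in D40A RIP, to 105, 293, 215, 336 and 242 in CNOT7 RIP and to 45, 170, 56, 189 and 117 in vector RIP. Per 100000 counts outside the 13 models this was 91.8, 251, 557 and 212 in D40A RIP, and 136, 404, 359, 670 and 480 in CNOT7 RIP. In vector RIP it was 77.3, 209, 99.5, 305 and 196. The groups overlapped on this scale and in CPM, where D40A RIP held 19.2, 50.4, 196 and 68.2 and CNOT7 RIP 29.3, 98.3, 70.7, 226 and 122. Replicate 6 was lowest and replicate 9 highest in all 3 constructs. At every shared replicate number the list's CPM was lower in D40A RIP than in CNOT7 RIP (0.655, 0.713, 0.867 and 0.559 times in replicates 6, 8, 9 and 10). It was higher there than in vector RIP (1.38, 2.88, 2.30 and 1.31 times).

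**Figure D5:**
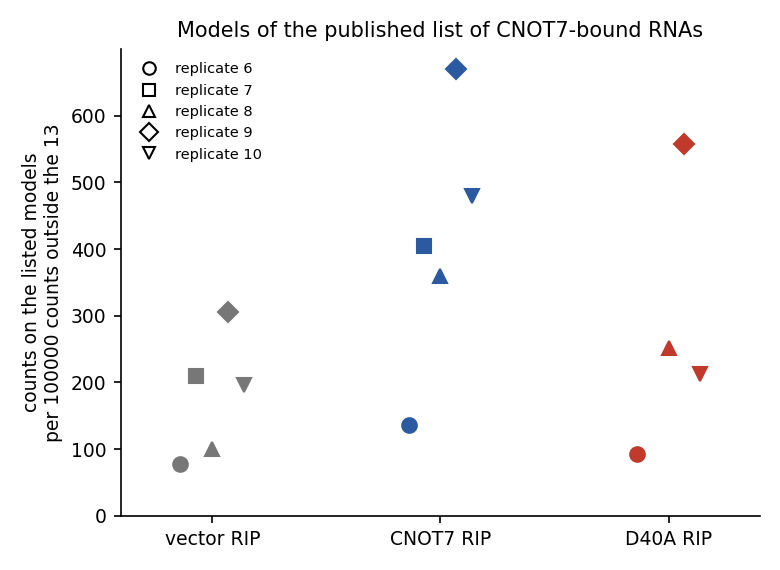
Counts on the listed models per 100000 counts outside the 13 most counted models, in each vector, CNOT7 and D40A RIP library, with marker shape for the replicate number. The groups overlap, and D40A RIP (91.8 to 557) spans from within the vector values (77.3 to 305) to within the CNOT7 values (136 to 670).

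Gene by gene, the mean CPM was lower in D40A RIP than in CNOT7 RIP for 120 of the listed transcripts and higher for 29 (19.5%), while 57.2% of the other 21213 models with a count were higher. Without D40A RIP replicate 9, 8.72% of the list and 25.5% of the others were higher. Against vector RIP, 132 (88.6%) of the list and 68.7% of the others were higher in D40A RIP. Without replicate 9, 68 (45.6%) of the list were higher and 65 lower, the rest being equal, while 32.6% of the others were higher. In edgeR's test 56 of the list passed the filter on low counts, 0 had an unadjusted p under 0.05 in either direction, 36 had a fitted value above 0, and their median log2 fold change was 0.16, opposite in sign to the direction of most means and below the 0.38 of all models. Over the 52 that exceeded 3 counts in some RIP library the median was 0.26, against 0.43 over all such models. Without replicate 9, 48 were tested, with a median of -1.11, 5 above 0 and 5 lower at an unadjusted p under 0.05, against 1.99% of all models. Of the 48, 20 had 3 or fewer counts in every remaining RIP library, and the other 28 had a median of -0.75 with 3 above 0, against -0.01 with 1522 of 3081 above 0 over all such models. The 5 lower ones (the actin regulator Eps8, the proteasome subunit Psmd11, Nfyc, Cdc42ep1 and the adrenergic receptor Adra1b) had 3 or fewer counts in every library except D40A RIP replicate 9, so no fold is given. The adjusted p of each was 1 (edgeR).

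The subset of 71 whose 3' ends carry all 3 motifs that the study used to define it (CPE, CPSF and NRE) was also taken alone. Of its members 30 were tested, 0 had an unadjusted p under 0.05, and the median was 0.19. Over the members that exceeded 3 counts it was 0.26 (28 of 30), and -0.66 without replicate 9 (15 of 24). For the other 78 the median was 0.16. Over those that exceeded 3 counts it was 0.27 (24 of 26), and -0.98 without replicate 9 (13 of 24). Without replicate 9, 4 of 24 in the subset and 1 of 24 in the remainder were lower at an unadjusted p under 0.05, against 1.99% of all models. Whether subset and remainder differ was not tested.

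On the list, 6 had a median of at least 5 counts in either group. Qtrtd1, a subunit of the tRNA queuosine transferase, had 5, 6, 23 and 4 counts in D40A RIP and 6, 11, 5, 7 and 8 in CNOT7 RIP, and a log2 fold change of -0.42 (SE 0.56). Polr1e, a subunit of RNA polymerase I, had 9, 20, 20 and 1 against 8, 11, 9, 9 and 6, and was at -0.01 (SE 0.57). In the adaptor Sorbs2, with 0, 2, 69 and 5 against 3, 6, 5, 7 and 8, the fitted value went from 0.38 to -1.15 when replicate 9 was left out. The neural protein Brinp3, with 10, 12, 150 and 4 against 14, 14, 20, 12 and 9, went likewise from 0.36 to -0.66, and the junction scaffold Magi1, with 0, 5, 53 and 4 against 1, 8, 5, 17 and 3, from -0.03 to -1.07. Gm16596, antisense to Evl, had 11, 8, 9 and 3 against 9, 12, 4, 3 and 7. The groups overlapped for all 6, and every adjusted p of the 6 was at least 0.991 (edgeR).

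Relative to the inputs, as a contrast of group means, no model passed either. Of 6931 models 0 were past the adjusted threshold in either direction (edgeR's interaction contrast), as with DESeq2 and limma. In D40A 228 (3.29%) lay higher and 27 (0.390%) lower at an unadjusted p of less than 0.05, with a median of 0.34. Scaled by the counts outside the 13 models 1.82% were higher and 0.649% (45 models) lower, and the split was 102 to 21 by DESeq2 and 107 to 46 by limma. Without D40A RIP replicate 9 it was 57 (0.923%) to 134 (2.17%), with a median of -0.09, and without that library and CNOT7 input replicate 10 it was 57 to 200 of 7411. The RIP and input of a replicate come from the same lysate, and no fit matched each RIP to its own input. With the replicate number as a block, shared by all constructs and both fractions, the split was 361 to 31. Again 0 were past the adjusted threshold.

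The 13 dominant models had ratios of -2.31 to 0.12 (median -0.98, log2), 2 of 13 above 0, with SEs of 0.79 to 1.25. They rested on 1 input. D40A input replicate 6 was the highest of the 9 inputs for 10 of the 13, as for Cntnap5b, a contactin-associated protein of neurons, which had 113, 17, 6 and 7 counts in D40A input and 7, 16, 9, 5 and 0 in CNOT7 input. Its log2 ratio difference was -2.31 (SE 1.15, edgeR's unadjusted p = 0.0486, adjusted p = 1) and -0.70 without D40A input replicate 6. Left out of the fit, that library took the 13 to a range of -0.70 to 0.61 with a median of 0.06. Without CNOT7 input replicate 10 the median was -0.86.

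Of the 5 models named toward D40A in the ratio, mt-Rnr1 had a log2 difference of 2.26 (unadjusted p = 0.0486, edgeR), which was -0.21 without D40A RIP replicate 10. Gm42418, a locus that holds ribosomal RNA sequence, had 417, 1000, 12681 and 1620 counts in D40A RIP and 446, 1237, 1062, 329 and 884 in CNOT7 RIP, and 7043 of its CNOT7 input counts were in replicate 10. Its difference of 2.46 was 0.90 without that input. Gm17077, antisense to Usf2 and Lsr, was at 1.62, and 0.95 without the same input, and Gm26737 and the mitochondrial S-adenosylmethionine carrier Slc25a26 were at 1.22 and 0.91. Toward CNOT7 the smallest p was that of Hhat, the acyltransferase of Hedgehog proteins. It had 50, 29, 95 and 2 counts in D40A RIP and 57, 64, 13, 10 and 14 in CNOT7 RIP, against 155, 22, 651 and 405 in D40A input and 70, 350, 44, 142 and 8 in CNOT7 input. Its difference of -2.06 (SE 0.93, unadjusted p = 0.0313, adjusted p = 1, edgeR) was carried by the inputs, which ranged more widely than the precipitates, and was -1.20 without D40A input replicate 9. Atf2 and Gm15890 were at -1.51 and -1.11, with Prodh nearer to 0.

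For the listed transcripts the median ratio difference over the 56 tested was -0.53, with 0 up and 2 down at an unadjusted p under 0.05, against a median of 0.34 and 0.390% down over all models. Over the 48 tested without D40A RIP replicate 9 it was -1.72 with 0 up and 9 down, against -0.09 and 2.17% down, and -1.33 over the 28 that exceeded 3 RIP counts, against -0.01 over all such models. The list had 44 counts in CNOT7 input replicate 10 and 269 to 1197 in the other 8 inputs. Without that input the medians over the same members were -0.49, with 0 up and 2 down, and -1.63, with 0 up and 8 down. The list's share of counts outside the 13 models in RIP over that in the matched input was 0.842, 1.49, 4.12 and 1.28 for D40A and 1.38, 2.49, 2.77, 7.37 and 37.0 for CNOT7, the last resting on CNOT7 input replicate 10. At every shared replicate number D40A was below CNOT7, whose RIP and input libraries served to pick the list. It was above vector there, which had 0.542, 0.553, 1.92 and 0.839 in replicates 6, 8, 9 and 10. The mitochondrial genes had a median ratio difference of 0.94, and -0.41 without D40A RIP replicate 9.

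The inputs themselves did not differ past the adjusted threshold (0 higher, 0 lower, edgeR, DESeq2 and limma). At an unadjusted p under 0.05, 39 models (0.563%) were higher and 32 (0.462%) lower in D40A input, and 43 and 43 by DESeq2 and 48 and 20 by limma. Same-numbered inputs deviated together, and with the replicate number as a block the counts were 127 and 92, with 0 past the adjusted threshold. The listed transcripts had a median input difference of 0.70 with 4 of 56 higher at an unadjusted p under 0.05, and 0.46 with 2 higher without CNOT7 input replicate 10, against medians of 0.03 and -0.01 over all models tested in both. The 13 dominant models had a median of 1.21 with 3 higher, and 0.09 with 0 without D40A input replicate 6.

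Against the antibody background in vector RIP, D40A RIP also had 0 models past the adjusted threshold in either direction (edgeR, DESeq2 and limma). At an unadjusted p under 0.05 there were 440 (6.35%) above and 36 (0.519%) below vector, by DESeq2 262 and 22 and with limma 368 and 67. Scaled by the counts outside the 13 models the split was 228 to 69. Without D40A RIP replicate 9 it was 88 (1.43%) to 99 (1.60%), with a median of -0.02. The listed transcripts had a median of 1.34 over vector with 9 of 56 higher and 0 lower, and -0.04 with 1 of 48 higher without that library. Of the 48, 20 had 3 or fewer counts in every remaining D40A and CNOT7 RIP library, so that median leans on low models. Summed over the list, D40A RIP replicates 6, 8 and 10 held 1.38, 2.88 and 1.31 times the CPM of same-numbered vector RIP. The mitochondrial genes had a median of 0.98, and -0.48 without D40A RIP replicate 9, and the 13 dominant models one of -0.05.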

How the data were processed

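RIP and input libraries were prepared with a directional kit. The authors deposited 1 table of whole-number counts per gene model, with no normalization, for 26899 models, of which 8719 carry no symbol. The submitters' processing notes name BWA, HTSeq and mm9, and the versions, annotation and strand of counting are not given in the sources used here. Every entry names a gene, and 0 columns of samples were left unused. Identifiers were matched to GENCODE M21 on GRCm38 (26555 found) for names, biotypes and overlaps, and no coordinate of one build was used with the other. No protein table or mm9 genome was used here, nor were the study's other data types.

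Counts of all 48 libraries in 10 groups were fitted with edgeR 4.0.16 in R 4.3.3 (filterByExpr, TMM, quasi-likelihood test, two-sided, Benjamini-Hochberg over all models tested, threshold 0.05) after a test on simulated data. All groups shared 1 estimate of the spread, so SEs, intervals and p-values of the fit take in the spread of the input libraries. No fold is given for a model that never exceeded 3 counts in the RIP libraries compared, and only counts are given where the CNOT7 RIP libraries alone stayed at 3 or fewer. This holds for single models, and list medians take in such models unless the text says otherwise. DESeq2 1.42.0 (an adjusted p given as NA stayed NA), limma 3.58.1 (trend, log2 CPM with prior count 2), other scalings, filters and sample sets, and each library left out in turn were the alternatives, 4 of them chosen after seeing the data. Single values per library were compared with exact permutation tests (scipy 1.17.1, with numpy 2.4.6, pandas 2.3.3, statsmodels 0.14.6 and matplotlib 3.10.9 in Python 3.11.15), and shares carry Wilson 95% intervals. These intervals and the limit of 3 counts take in counting error alone, as PCR copies could not be told apart. Total counts were 1305627 to 10719137 in the 9 RIP libraries.

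Named are Cnot7 and the CCR4-NOT subunits, the 10 models per direction with the smallest p in RIP and 5 in the ratio among those with a group median of at least 10 counts, the 13 models with most RIP counts, members of the published list with a group median of at least 5, and up to 3 best counted members of each other list. Members and lists were chosen with earlier results of these data known. Lists were matched by the table's symbol or, where it has none, by the GENCODE name.

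Groups that share replicate numbers were checked for pairing. The correlations of same-numbered deviations from the group means were 0.553, 0.297, 0.340 and 0.377 between D40A and CNOT7 inputs (replicates 6, 8, 9 and 10), which were taken as paired. RIP and input of a replicate came from the same lysate. Replicates of a group all differed by more than sampling noise, the smallest chi-square being 8.45 per degree of freedom.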

Additional observations from a re-analysis of the deposited data

Results flagged for a closer look

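The highest or lowest library of a group of 4 or 5 was set against the rest with Dixon's 95% criterion over 62 groups of values, and 9 passed, where chance passes about 1 in 20. D40A RIP replicate 9 held 377943 counts outside the 13 most counted models, against 42003 to 87174 in the other D40A RIP libraries, and 42.9 CPM of mt-Nd3 against 3.02 to 6.13. D40A RIP replicate 10 held 4411 CPM of mt-Rnr1 against 18.0 to 345, and CNOT7 RIP replicate 10 held 526 CPM of it against 18.7 to 132. CNOT7 RIP replicate 9 held 38.4 CPM of mt-Co2 against 7.06 to 11.7, and 12.1 CPM summed over the CCR4-NOT subunits against 5.31 to 6.05. The remaining values were 10.3 CPM of Wdr54 in D40A RIP replicate 6 against 3.06 to 4.22, 13.1 CPM of Gm15890 in CNOT7 RIP replicate 10 against 1.64 to 3.37, and 9.96 CPM of Gm11651 in D40A RIP replicate 10 against 0.905 to 2.24.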

How the results depend on the processing

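With an adjusted threshold, 0 models passed in D40A RIP against CNOT7 RIP and in the ratio under every alternative run. Without a filter on low counts, 31 models were lower in D40A input than in CNOT7 input. All 31 had at least 91.7% of their counts in CNOT7 input replicate 10, and 28 were at 0 in the other 8 inputs. With the filter it was 0, and 0 to 1 as libraries were left out in turn, the 1 (without CNOT7 input replicate 6 or 7, or without replicate 9 of every group) being Myo1h, with 132 counts in CNOT7 input replicate 10. Without a filter 2 models were lower in D40A RIP than in vector RIP, Rn7s1 and Rn7s2, both counted in vector RIP replicate 7 alone.

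At an unadjusted p under 0.05, the RIP comparison gave 320 models higher and 28 lower, 10 and 1 of 522 with at least 10 counts in every library of a group, 11 and 2 of 912 with only the compared groups, 8 and 4 of 1320 with the 24 RIP libraries, 203 and 45 without TMM factors, 810 and 201 with no filter, and 64 to 425 and 14 to 123 as libraries were left out. The ratio gave 87 and 12 of 4678 with only the compared groups and 57 to 304 and 10 to 134 as libraries were left out. The cause of these differences was not tested.

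With the replicate number as a block, the RIP comparison had 432 models above and 36 below 0 at an unadjusted p under 0.05, and 0 past the adjusted threshold, and without D40A RIP replicate 9 it had 120 and 115. D40A RIP against vector RIP had 620 and 58. The block changed no adjusted call. In D40A RIP replicates 6, 8, 9 and 10 the listed transcripts had 0.655, 0.713, 0.867 and 0.559 times the CPM of the same-numbered CNOT7 RIP (lower in 4 of 4), and 1.38, 2.88, 2.30 and 1.31 times that of vector RIP (higher in 4 of 4). The deviations of D40A RIP correlated best with the same-numbered CNOT7 RIP in 3 of 4 replicates (0.554, 0.478 and 0.236), and not in replicate 8 (0.0337). Pairing was taken as given only where every correlation was over 0.1, so the blocked fits of these RIP comparisons stand here only. This does not show that same-numbered libraries are unrelated. The counts outside the 13 models (42003 to 377943 in these RIP libraries) limit what can be seen.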
